A study of Mus musculus with 3 samples.

Results

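The genes described here are those of cholesterol synthesis and of its control by SREBP2, a set of 31 named genes that runs from the mevalonate pathway to the last step of cholesterol synthesis and on to the sensors, carriers and exporters of sterol. They were listed by name for their role in the pathway, with earlier results of these data known, and 30 of the 31 were found among the 31510 genes of the deposited tables. Hmgcs1 was matched neither by symbol nor by Ensembl ID and is not analysed here. The libraries came from CD-1 mouse blastocysts in 3 states of delayed implantation. All mothers were 2 months old. Their ovaries were taken out on pregnancy day 4, and progesterone (2 mg per mouse) was given from day 5 to day 7, so that all states share the surgery and the hormone. Dormant blastocysts were flushed on day 8 without oestrogen. Reactivating and reactivated blastocysts came from mothers that received E2, which ends dormancy, on day 7 and were collected 6 h and 12 h after it. Each state is 1 library made from a pool of over 3000 blastocysts. Hours after E2, the time of collection, the pool and the library therefore change together and cannot be told apart, and no test across replicates exists.

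Animal cells build cholesterol from acetyl-CoA. The mevalonate pathway makes isoprenoid units, which are joined to farnesyl diphosphate and then to squalene, and squalene is closed into lanosterol and trimmed to cholesterol. When sterol in the endoplasmic reticulum is low, SCAP escorts the membrane-bound factor SREBP2 to the Golgi, where it is cleaved, and the freed part switches on most genes of synthesis and uptake. When sterol is high, the INSIG proteins hold the complex back, while oxysterols switch on the LXR receptors and, through them, the exporters. Growing cells draw on the pathway for membranes, and its isoprenoid branch supplies the lipid anchors of small GTPases.

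The libraries held 9298675 (dormant), 10364607 (reactivating) and 12941447 (reactivated) exon reads in genes. Levels are given as RPKM, exon reads corrected for exon length and for the size of the library, which can be set beside each other between genes. Of the 30 genes, 28 had at least 1 RPKM in a library of every comparison and count as measured. A gene is called higher or lower where log2((RPKM + 1)/(RPKM + 1)) was at least 1 in size, and "rose" and "fell" are used of such genes alone. Each level also has an exact 95% Poisson interval of its reads, and ratios of RPKM without the added 1 are given with exact 95% binomial intervals. These intervals cover counting error only and say nothing of how far 2 pools of the same state would differ. Markers of the blastocyst's own cell types were present in all libraries, with 10 of 10 trophectoderm, 8 of 8 epiblast and 6 of 6 primitive endoderm markers at 1 RPKM or more. The trophectoderm markers summed to 1383 (dormant), 1386 (reactivating) and 1127 RPKM (reactivated). The epiblast ones summed to 192, 238 and 225 RPKM in the same order, and the primitive endoderm ones to 64.7, 61.3 and 52.6 RPKM. The summed level of 10 markers of uterine epithelium was 107 RPKM (dormant), 101 RPKM (reactivating) and 56.6 RPKM (reactivated), with 4 of them at 1 RPKM or more. Nearly all of the dormant sum was Msx1 (36.3 RPKM), Lif (35.75 RPKM) and Wfdc2 (30.1 RPKM). These had 30.6, 9.55 and 13.4 RPKM in the reactivated library, while Pgr, Esr1, Calb1, Ihh, Cdh16 and Ltf stayed under 1 RPKM throughout. The summed level of 7 uterine stroma markers was 7.42 (dormant), 5.66 (reactivating) and 6.11 RPKM (reactivated). That of 8 immune cell markers was 23.2 (dormant), 17.0 (reactivating) and 7.28 RPKM (reactivated), with 4, 3 and 2 of them at 1 RPKM or more, and that of 6 red blood cell genes was 0.66 (dormant), 0.61 (reactivating) and 0.50 RPKM (reactivated), with Hba-a1 and Hba-a2 at 0 reads and no Hbb-bs or Hbb-bt level over 0.41 RPKM. The part of maternal cells in the differences below was not tested. In pooled embryos, fewer cells of a type and less RNA per cell cannot be told apart.

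At 6 h after E2 no gene of the set had changed by this rule. At 12 h several enzymes of synthesis had risen, while Npc2, a lysosomal sterol carrier, and Nr1h2, a sterol sensor, had fallen. Of the 28 measured genes 0 were higher and 0 lower in the reactivating library against the dormant one, where 2.68% of 12126 genes tested were higher and 3.07% lower. In the reactivated library against the dormant one 6 (21.4%) rose, all of them enzymes of synthesis, and 2 (7.14%) fell. Of 12037 genes tested 5.27% were higher and 7.66% lower, so the share of the set that fell was near that of all genes. Protein-coding genes alone gave a background of 0.683% higher and 0.291% lower at 6 h, and of 3.63% higher and 5.53% lower at 12 h against dormant. The set's counts of 0 at 6 h were thus near the protein-coding shares. The 6 that rose were Acat2, Fdps, Fdft1, Cyp51, Msmo1 and Nsdhl, and the 2 that fell were Npc2 and Nr1h2. Against the reactivating library, 6 genes (21.4%) were higher in the reactivated one, namely Fdps, Cyp51, Msmo1, Nsdhl, Hsd17b7 and Sc5d. Npc2 alone (3.57%) was lower, where 3.82% of 12065 genes were higher and 7.63% lower. The comparisons share libraries and are not independent of each other. The median log2 difference of the 28 genes was 0.03 at 6 h against dormant (all genes tested 0.06), 0.37 at 12 h against dormant (all genes -0.07) and 0.27 at 12 h against 6 h (all genes -0.13). The 4 other scalings moved the medians of all genes, and each kept the sign of every gene of the set whose Poisson intervals were apart. With upper-quartile scaling 809 genes of the whole table were higher and 749 lower in the reactivated library against the dormant one, in place of 634 and 922, and the set had 7 higher (Sqle added) and 2 lower.

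**Figure D1:**
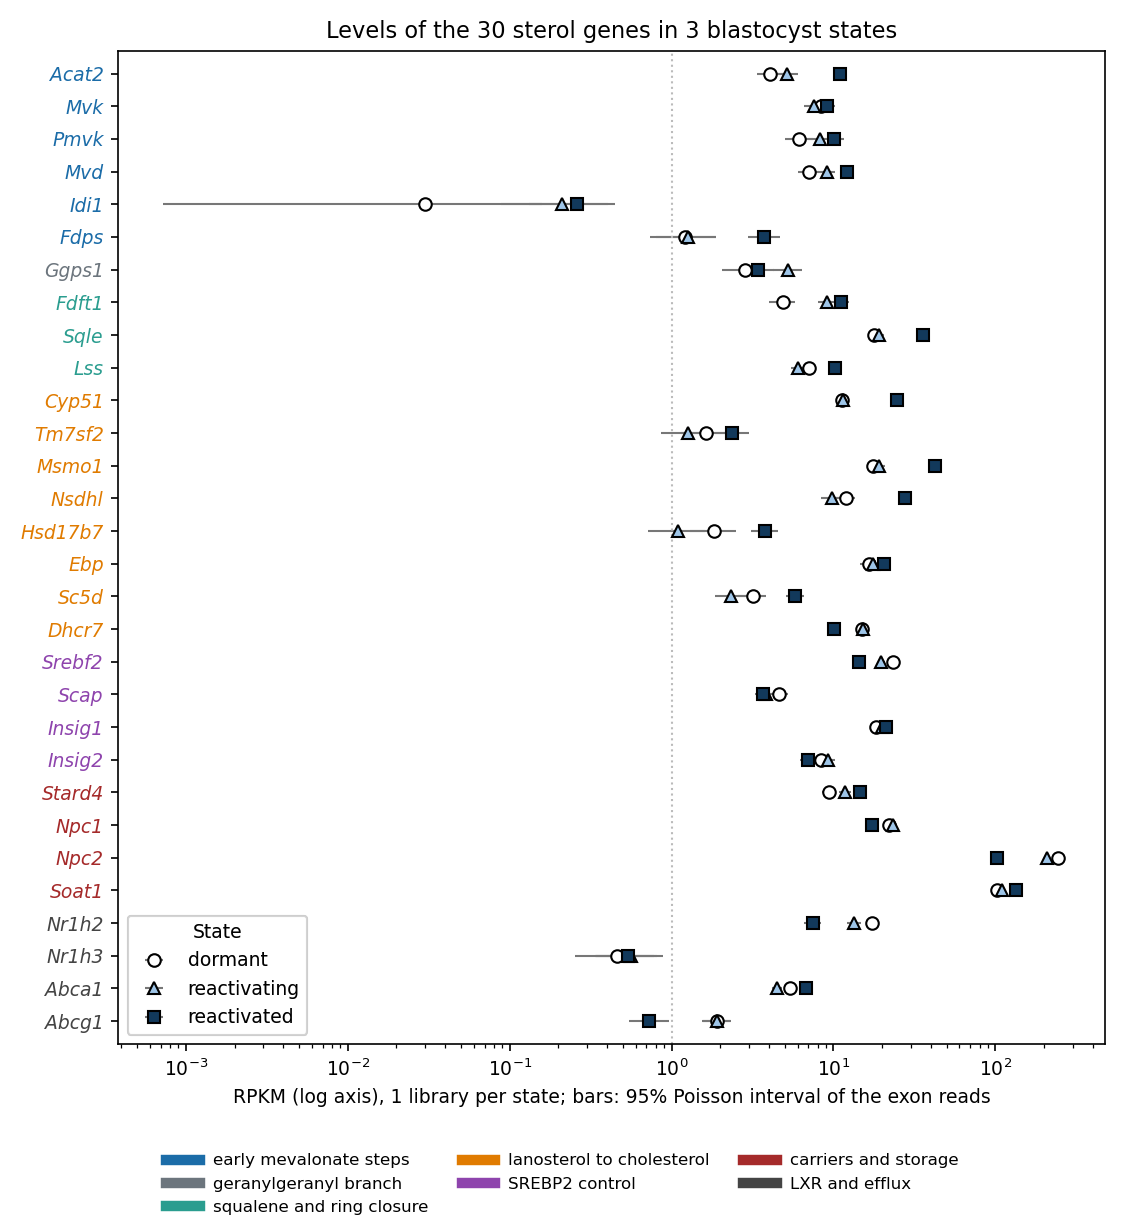
Level of each of the 30 genes (RPKM, logarithmic axis) in the dormant, reactivating and reactivated libraries, 1 library each, with bars for the exact 95% Poisson interval of the exon reads and label colours for the role. The squares of the reactivated library lie to the right for most enzymes from Acat2 to Sc5d, while Npc2, Nr1h2 and Abcg1 have theirs to the left.

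By role, the enzymes of synthesis and the other genes of the set had medians of opposite sign at 12 h against dormant. The 17 enzymes on the way from acetyl-CoA to cholesterol that were found, of which all but Idi1 were measured, had a median log2 difference of 0.73 in the reactivated library against the dormant one. Of these 16, 15 were above 0, where 45.1% of all genes tested were, and 13 had Poisson intervals apart and higher and 1 apart and lower, where 24.5% of all genes were apart and higher and 31.6% apart and lower. The other 12 measured genes had a median of -0.25, with 4 apart and higher and 5 apart and lower. The summed level of the 17 enzymes was 136 RPKM in dormant, 144 RPKM in reactivating and 241 RPKM in reactivated blastocysts, so that nearly all of the gain lay between 6 h and 12 h. At 6 h 1 of the 16 enzymes, Fdft1, was apart and higher and 0 were apart and lower, where 19.1% and 10.7% of all genes were. The other 12 genes had 3 apart and higher at 6 h (Ggps1, Stard4 and Soat1) and 4 apart and lower (Srebf2, Npc2, Nr1h2 and Abca1). At 12 h against 6 h, 11 of the 16 enzymes were apart and higher and 1 apart and lower, where 21.1% and 34.5% of all genes were.

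**Figure D2:**
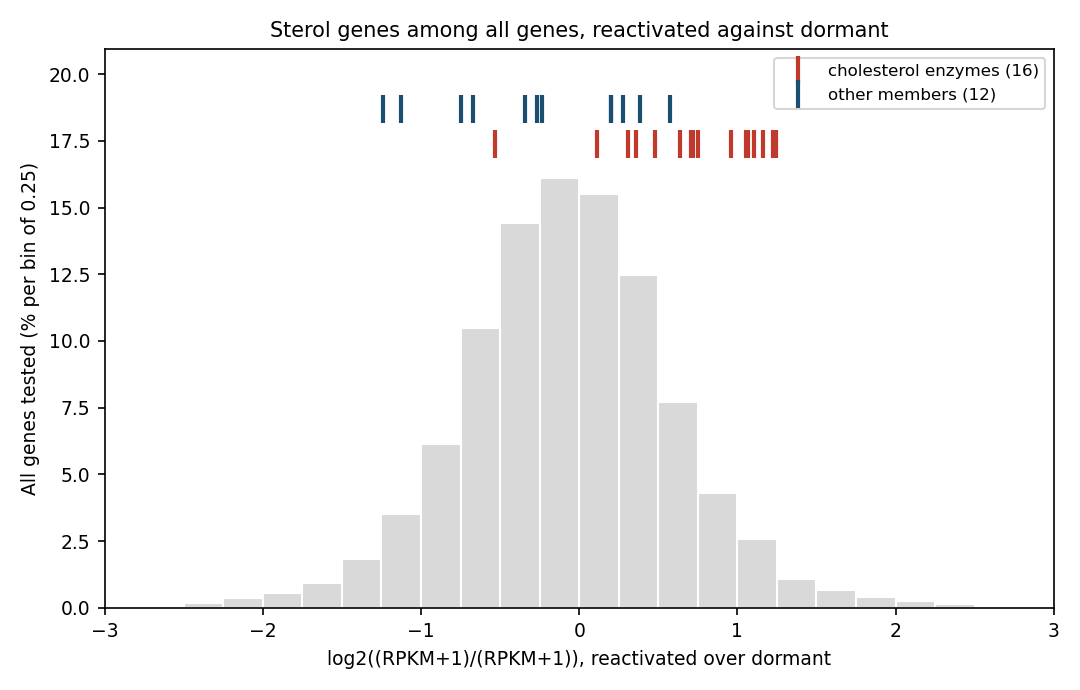
Distribution of log2((RPKM + 1)/(RPKM + 1)) in the reactivated library against the dormant one over the 12037 genes tested (grey, percent of genes per bin), with red marks for the 16 cholesterol enzymes and blue marks for the other 12 measured genes of the set. Of the red marks 15 lie above 0, and the blue marks lie on both sides.

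The early steps differed among themselves. Acat2, the cytosolic thiolase that joins 2 acetyl-CoA molecules (ENSMUSG00000023832, chromosome 17, 12942890 to 12960747 in GENCODE M21, GRCm38), had 4.08 (dormant), 5.19 (reactivating) and 11.05 RPKM (reactivated). It rose by a log2 difference of 1.25 at 12 h against dormant, a ratio of 2.71 (2.20 to 3.34), the widest gain among the measured enzymes on that scale, and the intervals of the first 2 libraries overlap. Mvk, which phosphorylates mevalonate, had 8.36 (dormant), 7.63 (reactivating) and 9.12 RPKM (reactivated), and its 3 intervals overlap. Pmvk, the next kinase, had 6.15 (dormant), 8.21 (reactivating) and 10.11 RPKM (reactivated), and Mvd, which decarboxylates the product to isopentenyl diphosphate, 7.04 (dormant), 9.07 (reactivating) and 12.21 RPKM (reactivated). Both lay below the size rule at 12 h against dormant, with ratios of 1.65 (1.29 to 2.11) and 1.74 (1.45 to 2.09). Idi1, the isomerase of isopentenyl diphosphate, was barely read, with 0.03 (dormant), 0.21 (reactivating) and 0.26 RPKM (reactivated) from 1, 8 and 12 exon reads in the same order, and no direction is drawn from it. Fdps, which makes farnesyl diphosphate, had 1.21 (dormant), 1.26 (reactivating) and 3.75 RPKM (reactivated) from 20, 23 and 83 exon reads in the same order, and rose at 12 h by 1.10 on the log2 scale against dormant, a ratio of 3.09 (1.88 to 5.31). The rows of Mvk, Idi1 and Ggps1 each name at least 1 further locus, and genes of this pathway have pseudogenes, so that reads of near-identical copies may be split or merged in them.

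Farnesyl diphosphate is the branch point, and in this set Ggps1 alone stands for the geranylgeranyl side. Ggps1, which makes geranylgeranyl diphosphate for protein anchors, had 2.83 (dormant), 5.26 (reactivating) and 3.41 RPKM (reactivated) from 45, 93 and 73 exon reads. Its ratio to dormant at 6 h was 1.86 (1.29 to 2.72), while its intron reads (67, 29 and 71) gave 0.390 (0.243 to 0.611). It passed the size rule in no comparison, and its 6 h and 12 h intervals overlap, so no peak at 6 h is drawn from it. At 12 h it was back within the interval of the dormant library, with a ratio of 1.21 (0.821 to 1.79). Fdft1, squalene synthase and the first enzyme committed to sterol, had 4.85 (dormant), 9.11 (reactivating) and 11.17 RPKM (reactivated). Of the measured enzymes on the way from acetyl-CoA to cholesterol, Fdft1 was the 1 whose level at 6 h already stood apart from dormant. The ratio of reactivating to dormant was 1.88 (1.497 to 2.37) and that of reactivated to reactivating 1.23 (1.04 to 1.45). Sqle, squalene monooxygenase and a controlling step of the late pathway, had 17.9 (dormant), 19.2 (reactivating) and 35.7 RPKM (reactivated). Its log2 difference of 0.96 at 12 h against dormant was just short of the rule, with a ratio of 2.00 (1.83 to 2.18), and its 12 h interval lay above both others. Lss, which closes the rings to lanosterol, had 7.06 (dormant), 6.01 (reactivating) and 10.25 RPKM (reactivated) and a ratio of 1.45 (1.297 to 1.63) at 12 h against dormant.

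From lanosterol on, the demethylating enzymes carried the clearest gains. Cyp51, the lanosterol demethylase, had 11.3 (dormant), 11.5 (reactivating) and 24.7 RPKM (reactivated), level between the first 2 libraries and then higher by 1.06 on the log2 scale at 12 h against dormant, a ratio of 2.19 (2.01 to 2.39). Msmo1, the sterol methyl oxidase, listed under its older symbol Sc4mol, had 17.6 (dormant), 19.2 (reactivating) and 42.6 RPKM (reactivated) and became the most abundant enzyme of the pathway at 12 h, with a ratio of 2.42 (2.17 to 2.69) to dormant. Nsdhl, the X-linked decarboxylating dehydrogenase that acts after Msmo1, had 11.9 (dormant), 9.73 (reactivating) and 27.85 RPKM (reactivated) and a ratio of 2.34 (1.995 to 2.76). Hsd17b7, the ketoreductase of the same cycle, had 1.83 (dormant), 1.10 (reactivating) and 3.77 RPKM (reactivated), and rose by 1.18 on the log2 scale at 12 h against 6 h. Against dormant its difference was 0.75. In the reactivated library 25 further reads lay on the opposite strand of Hsd17b7, equal to 23.1% of its exon reads. Sc5d, the desaturase, had 3.17 (dormant), 2.34 (reactivating) and 5.80 RPKM (reactivated), rose by 1.03 at 12 h against 6 h and differed by 0.71 from dormant. Nsdhl, Hsd17b7 and Sc5d thus had their lowest levels at 6 h, although the intervals of the reactivating and dormant libraries overlap for each.

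The remaining late enzymes did not pass the rule. Tm7sf2, a sterol reductase of the nuclear envelope and endoplasmic reticulum, had 1.64 (dormant), 1.27 (reactivating) and 2.38 RPKM (reactivated), and its 12 h ratio to dormant of 1.45 (0.948 to 2.24) includes 1. Ebp, the X-linked isomerase, had 16.5 (dormant), 17.5 (reactivating) and 20.6 RPKM (reactivated), a ratio of 1.25 (1.07 to 1.47) at 12 h against dormant. Dhcr7, the reductase of 7-dehydrocholesterol at the end of the pathway, had 15.05 (dormant), 15.2 (reactivating) and 10.11 RPKM (reactivated) and was the 1 measured enzyme that was lower at 12 h, with a log2 difference of -0.53 and a ratio of 0.672 (0.597 to 0.756) to dormant. In the dormant library Dhcr7 stood near the most abundant enzymes, Sqle, Msmo1 and Ebp, with an interval that overlaps those of Msmo1 and Ebp but not that of Sqle. In the reactivated library the most abundant enzymes were Msmo1, Sqle, Nsdhl, Cyp51 and Ebp in that order, of which Nsdhl and Cyp51 have intervals that overlap. Mvd, Fdft1, Acat2 and Lss followed, and Dhcr7, level with Pmvk at 10.11 RPKM, had an interval that overlaps those of Fdft1, Acat2, Lss and Pmvk.

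**Figure D3:**
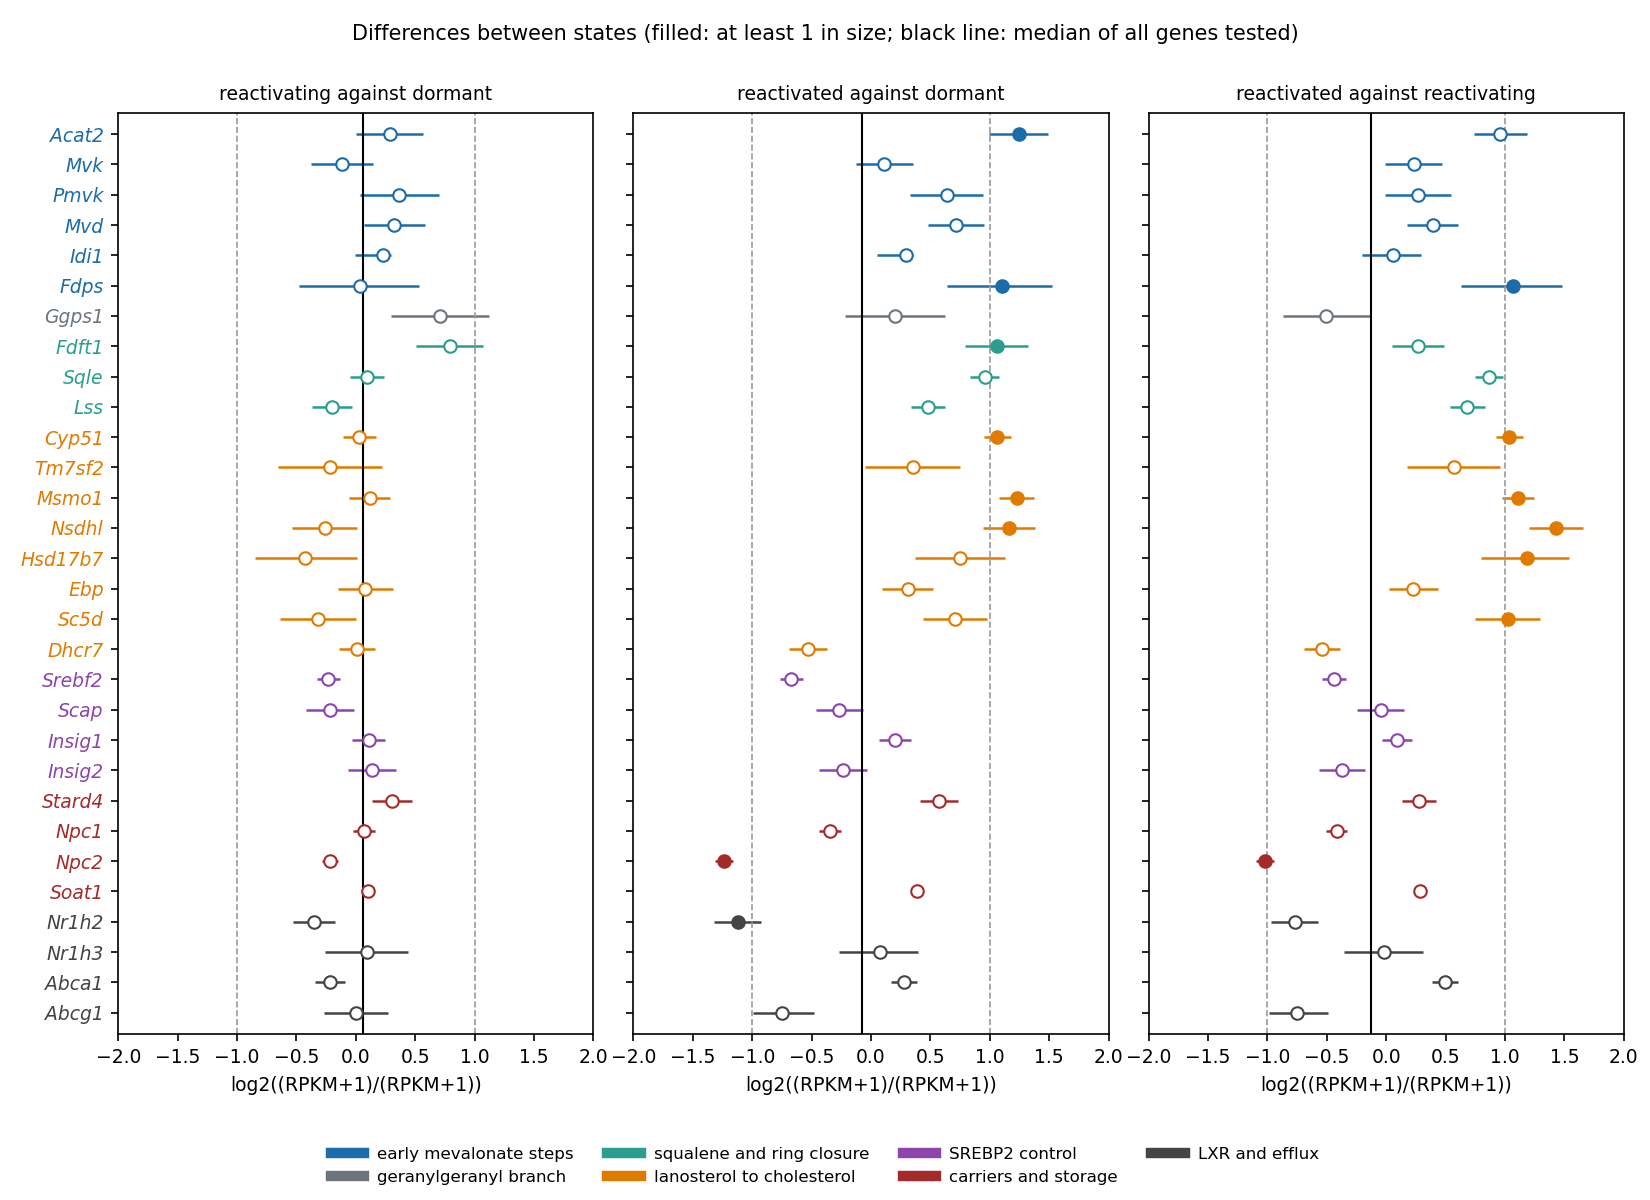
log2((RPKM + 1)/(RPKM + 1)) of each gene in the 3 comparisons, with bars for the exact 95% interval of the reads, filled points at 1 or more in size with at least 1 RPKM, and a black line at the median of all genes tested. The left panel has no filled point, and the middle and right panels have filled points to the right among the enzymes and to the left at Npc2, with Nr1h2 filled in the middle panel alone.

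None of the 4 genes that run the control passed the rule in any comparison. Srebf2, which encodes SREBP2 (chromosome 15, 82147181 to 82205379), had 23.4 (dormant), 19.8 (reactivating) and 14.3 RPKM (reactivated), and its 3 intervals do not overlap. Its ratio to dormant was 0.845 (0.788 to 0.907) at 6 h and 0.612 (0.570 to 0.658) at 12 h, a log2 difference of -0.67, short of the rule. Scap, the escort, had 4.64 (dormant), 3.84 (reactivating) and 3.69 RPKM (reactivated) with overlapping intervals. Its ratio to dormant was 0.828 (0.696 to 0.986) at 6 h and 0.795 (0.672 to 0.940) at 12 h. In the reactivated library 65 further reads, equal to 22.0% of the exon reads of Scap, lay on the opposite strand. Insig1, itself a known target of SREBP2 and the main anchor in the endoplasmic reticulum, had 18.3 (dormant), 19.8 (reactivating) and 21.2 RPKM (reactivated), a ratio of 1.16 (1.05 to 1.27) at 12 h against dormant. Insig2, its relative, had 8.38 (dormant), 9.30 (reactivating) and 6.96 RPKM (reactivated), lower at 12 h than at 6 h with a ratio of 0.748 (0.644 to 0.870). The ratio of Insig2 to dormant at 12 h was 0.830 (0.709 to 0.973). The level of Srebf2 mRNA says nothing of how much SREBP2 was cleaved, which was not measured.

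The carrier Npc2 and the storage enzyme Soat1 were the most abundant genes of the set in each library. Npc2, the soluble lysosomal protein that hands cholesterol to NPC1 (ENSMUSG00000021242, chromosome 12, 84754562 to 84773152), had 243 (dormant), 208 (reactivating) and 102 RPKM (reactivated). It fell by 1.24 on the log2 scale at 12 h against dormant, a ratio of 0.421 (0.399 to 0.444), and by 1.02 against 6 h, and none of its intervals overlap. Its partner Npc1, the membrane protein of the lysosome, had 22.1 (dormant), 23.3 (reactivating) and 17.2 RPKM (reactivated) and a ratio of 0.778 (0.726 to 0.833) to dormant at 12 h. The immune and uterine epithelial marker sums given above were also lower at 12 h than in dormant. So were those of trophectoderm and primitive endoderm, while that of epiblast was higher. The part of any of these cell types in the level of Npc2 was not tested. Soat1, which esterifies cholesterol for storage, had 103 (dormant), 111 (reactivating) and 135 RPKM (reactivated), a ratio of 1.31 (1.27 to 1.35) at 12 h against dormant, below the rule but with 3 intervals apart. By level Soat1 stood above Npc2 in the reactivated library and below it in the other 2. Stard4, a soluble sterol carrier and known SREBP2 target, had 9.42 (dormant), 11.8 (reactivating) and 14.5 RPKM (reactivated), with a ratio to dormant of 1.26 (1.11 to 1.43) at 6 h and 1.54 (1.37 to 1.74) at 12 h.

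Of the receptors and exporters, Nr1h2, the LXR-beta receptor (ENSMUSG00000060601, chromosome 7, 44549616 to 44553951), had 17.4 (dormant), 13.4 (reactivating) and 7.45 RPKM (reactivated). It fell by 1.12 on the log2 scale at 12 h against dormant, a ratio of 0.428 (0.368 to 0.496), and was already at 0.770 (0.675 to 0.879) of the dormant level at 6 h. Its 3 intervals do not overlap. Nr1h3, the LXR-alpha receptor, stayed under 1 RPKM throughout, with 0.46 (dormant), 0.56 (reactivating) and 0.54 RPKM (reactivated) from 14, 19 and 22 exon reads in the same order. Of the exporters that LXR is known to switch on, Abca1, which loads apolipoproteins with cholesterol, had 5.39 (dormant), 4.50 (reactivating) and 6.75 RPKM (reactivated) and a ratio of 1.25 (1.14 to 1.37) at 12 h against dormant. Abcg1, the exporter to formed lipoprotein particles, had 1.91 (dormant), 1.91 (reactivating) and 0.73 RPKM (reactivated) from 97, 108 and 50 exon reads in the same order, and its log2 difference of -0.75 at 12 h against dormant was short of the rule. With a ratio of 0.383 (0.267 to 0.545) the added 1 RPKM understates it. In Abcg1 the reactivated library had 54 reads on the opposite strand, 108% of its exon reads, and the dormant library 27, so that this low level is uncertain.

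Reads in introns gave a readout that RPKM does not use, from the same libraries. The 17 enzymes together had 301, 313 and 531 exon reads per 1000000 library reads in dormant, reactivating and reactivated blastocysts, and 53.6 (dormant), 53.8 (reactivating) and 93.0 reads (reactivated) across exon junctions on the same scale. Their intron reads came to 68.0 (dormant), 69.0 (reactivating) and 75.02 (reactivated) on it. Over all genes intron reads were 27.7% (dormant), 25.1% (reactivating) and 23.5% (reactivated) of exon and intron reads together. At 12 h against dormant, the 15 enzymes with at least 20 intron reads over both libraries had a median log2 ratio of 0.997 in exon reads and of 0.08 in intron reads, where the medians of 9323 genes were -0.08 and -0.20. The exon interval lay above the intron interval in 9 of the 15 enzymes, 60.0%, against 22.0% of all genes.

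Msmo1 showed this most plainly, with an exon ratio of 2.42 (2.17 to 2.69) and an intron ratio of 0.774 (0.600 to 0.997) from 130 intron reads in the reactivated library and 125 in the dormant one. Fdft1 had an intron ratio of 0.992 (0.798 to 1.23), Cyp51 of 1.17 (0.889 to 1.55) and Fdps of 1.02 (0.687 to 1.54), each with an exon ratio above 2. Nsdhl, with 143 and 78 intron reads in the reactivated and dormant libraries, had an intron ratio of 1.36 (1.03 to 1.82), and for Lss and Pmvk the exon and intron intervals overlapped. Srebf2 was as low in introns, at 0.647 (0.569 to 0.735), as in exons, at 0.612 (0.570 to 0.658), at 12 h against dormant. At 6 h against dormant the 2 readouts of Srebf2 differed, with 1.128 (1.004 to 1.268) in introns and 0.845 (0.788 to 0.907) in exons. Soat1 had the most intron reads, 1851 in the reactivated library and 2095 in the dormant one, an intron ratio of 0.657 (0.617 to 0.700) beside an exon ratio of 1.31 (1.27 to 1.35). At 12 h against dormant, Npc2 and Dhcr7 were the 2 of 27 measured genes whose exon interval lay below that of the introns, as in 10.5% of all genes. For Dhcr7 the intron ratio was 1.04 (0.798 to 1.37). Intron reads come from unspliced RNA and from any other transcript inside the intron, and the shares of these were not measured.

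**Figure D4:**
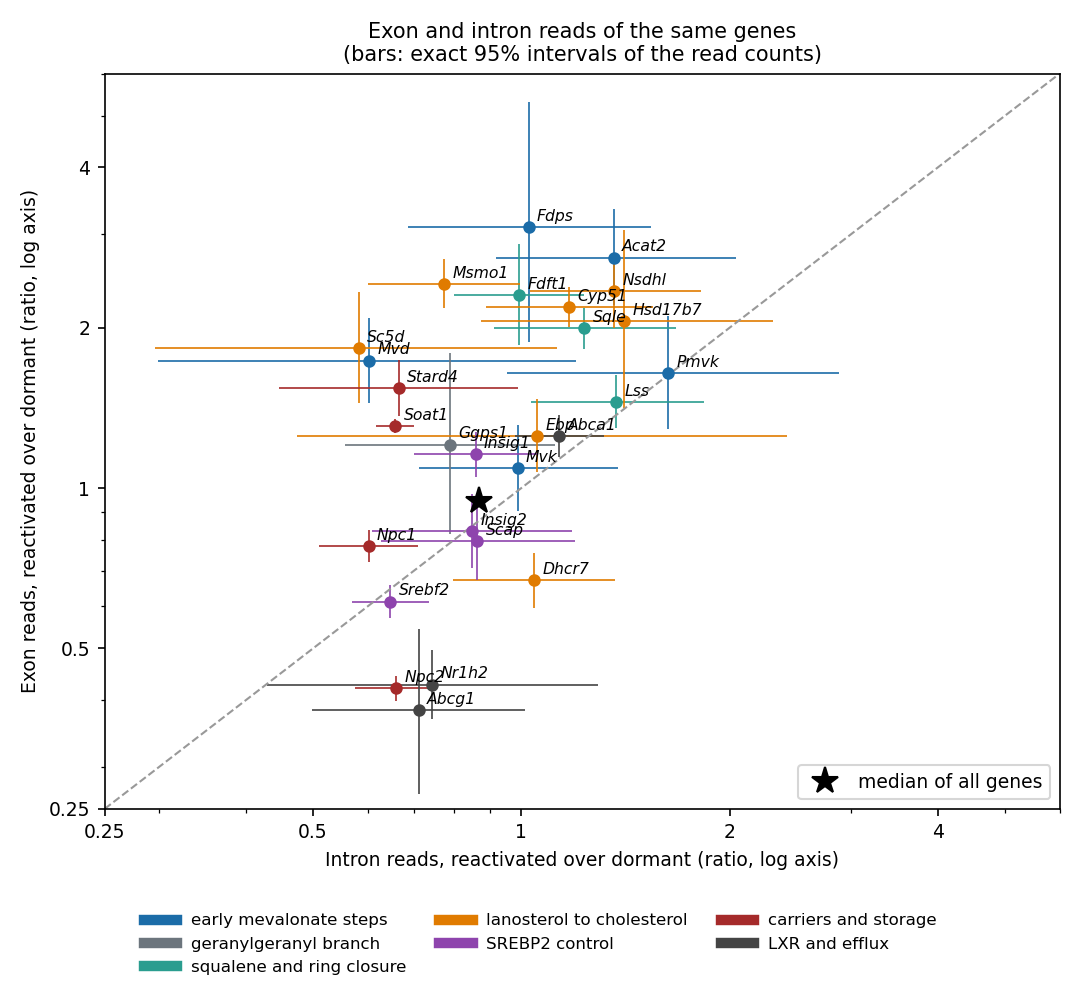
Ratio of reactivated to dormant in exon reads (vertical) against the ratio in intron reads (horizontal), both on log axes, for the 27 measured genes with at least 20 intron reads, with bars for exact 95% intervals and a star at the medians of all genes. Msmo1, Fdft1, Fdps and Cyp51 lie between 0.774 and 1.17 on the horizontal axis and above 2 on the vertical one, while Srebf2 lies on the dashed line of equal ratios.

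The promoters of the genes that rose or fell are shown because nuclear factor Y, which binds the letters CCAAT, is known to act beside SREBP2 at sterol genes. RefSeq entries (GRCm38.p6) were at hand for 24 of the 30 genes, and among the 8 genes past the rule at 12 h against dormant for Acat2, Cyp51, Msmo1, Nsdhl, Npc2 and Nr1h2. Msmo1 is not printed, since M21 starts the gene further upstream and 214 bases of its window lie inside that gene. Each line gives the 250 bases before the RefSeq start on the gene's own strand, 5′ to 3′, with capitals for CCAAT or its reverse complement ATTGG.
Acat2, chr17:12960726-12960975, minus strand: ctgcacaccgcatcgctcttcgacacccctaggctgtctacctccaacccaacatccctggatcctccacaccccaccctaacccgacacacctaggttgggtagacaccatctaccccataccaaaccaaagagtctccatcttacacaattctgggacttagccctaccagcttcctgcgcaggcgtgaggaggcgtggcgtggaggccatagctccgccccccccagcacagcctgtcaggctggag
Cyp51, chr5:4104698-4104947, minus strand: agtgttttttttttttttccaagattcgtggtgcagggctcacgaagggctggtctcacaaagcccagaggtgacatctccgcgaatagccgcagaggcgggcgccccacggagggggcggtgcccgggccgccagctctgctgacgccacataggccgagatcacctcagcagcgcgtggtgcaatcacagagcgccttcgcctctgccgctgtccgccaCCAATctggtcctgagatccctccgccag
Nsdhl, chrX:72918271-72918520, plus strand: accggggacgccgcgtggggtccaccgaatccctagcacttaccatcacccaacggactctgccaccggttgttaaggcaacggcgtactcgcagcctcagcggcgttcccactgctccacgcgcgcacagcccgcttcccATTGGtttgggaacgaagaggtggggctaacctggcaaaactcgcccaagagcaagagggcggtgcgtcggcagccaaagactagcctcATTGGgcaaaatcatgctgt
Npc2, chr12:84773113-84773362, minus strand: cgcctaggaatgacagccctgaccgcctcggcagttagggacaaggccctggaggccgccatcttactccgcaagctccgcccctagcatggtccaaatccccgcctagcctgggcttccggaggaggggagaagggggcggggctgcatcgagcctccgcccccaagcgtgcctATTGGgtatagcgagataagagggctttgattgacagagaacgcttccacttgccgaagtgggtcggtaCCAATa
Nr1h2, chr7:44553966-44554215, minus strand: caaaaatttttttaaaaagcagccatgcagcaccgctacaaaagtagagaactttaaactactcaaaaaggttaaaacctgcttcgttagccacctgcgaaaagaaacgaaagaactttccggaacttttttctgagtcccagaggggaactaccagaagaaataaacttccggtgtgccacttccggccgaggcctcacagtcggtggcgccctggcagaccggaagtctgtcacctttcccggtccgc
Msmo1 holds 3 CCAAT boxes, the nearest with its first base 55 bases upstream of the start, Nsdhl and Npc2 hold 2 each, and Cyp51 holds 1, with its first base 29 upstream. Acat2, which rose, and Nr1h2, which fell, hold 0 in this window. M21 also starts Acat2, Cyp51 and Npc2 upstream of the RefSeq start, by 22, 49 and 40 bases. All 3 boxes of Msmo1, the 1 of Cyp51 and the nearer of the 2 of Npc2 therefore lie inside the gene as M21 draws it, and those of Nsdhl lie outside it.

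Over the whole set, CCAAT on either strand was found in 13 of the 14 enzymes with an entry, Acat2 being the exception, and in 6 of the 10 other genes with one. By gene, it was found in 10133 of all 27025 genes with an entry and in 3315 of the 8133 with at least 1 RPKM. In 5 of those 13 enzymes (Cyp51, Dhcr7, Idi1, Msmo1 and Tm7sf2) every box lies inside the M21 gene. This leaves 8 enzymes with a box outside it, while all 6 other genes keep one, a count not made over all genes. Some genes have several entries: counted by entry, 13 of 17 enzyme promoters and 19 of all 31 of the set (61.3%) held it, against 33.8% of 32851 promoters and 35.3% of 10424 promoters of genes with at least 1 RPKM. Mvk, whose level differed little between the libraries, holds 5, and Dhcr7, which was lower at 12 h, holds 2 in 1 of its 3 entries. The box was thus present in promoters of genes that rose, of Npc2, which fell, and of genes that did neither. The GC box GGGCGG was in 21 of the 31 entries, where 60.0% of the promoters of genes with at least 1 RPKM held it, and the E-box CACGTG in 6 of the 31, where 8.74% did. All 3 motifs were searched on both strands, 0 matches overlapped a match of another motif, and a match is a description of letters, not of binding.

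**Figure D5:**
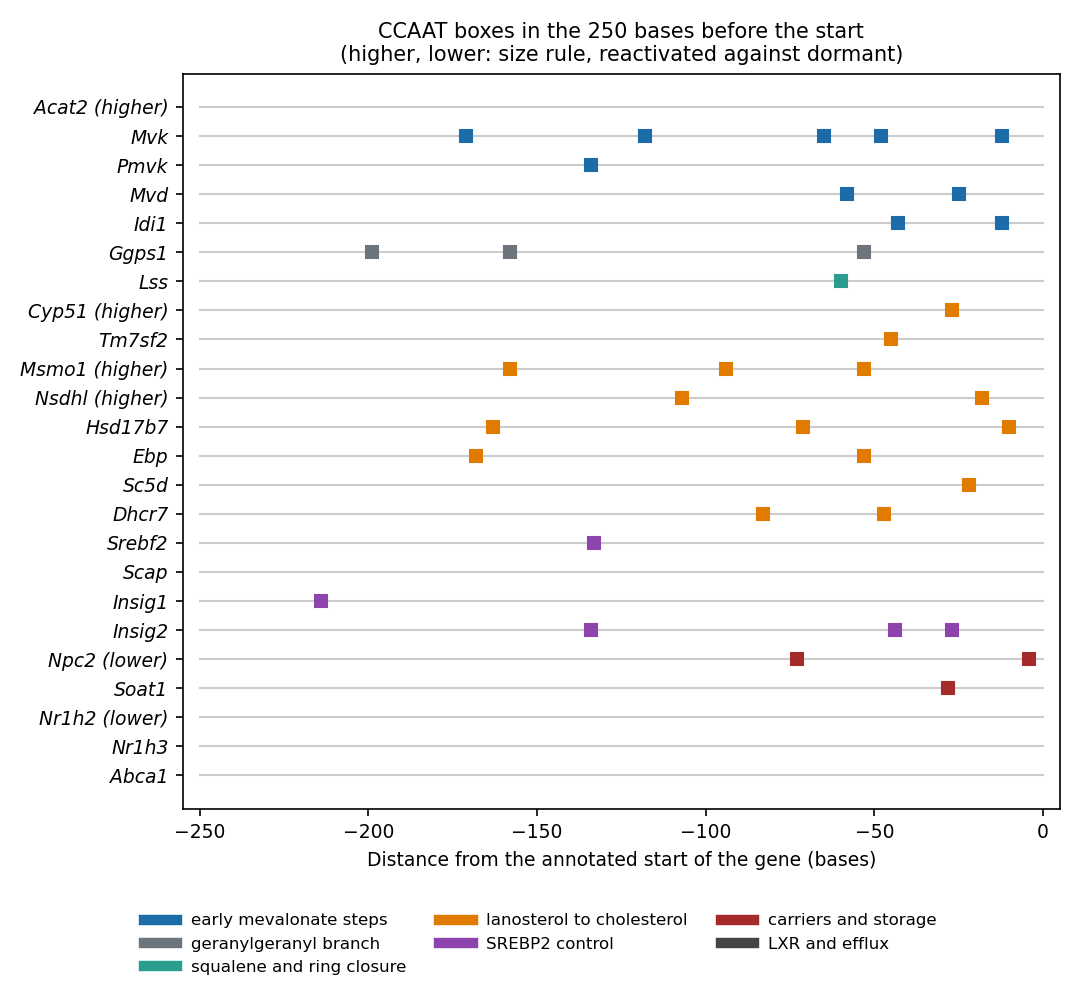
Position of CCAAT boxes (either strand) in the 250 bases upstream of the RefSeq start, in bases upstream of the start, for the 24 genes with a promoter entry. Mvk has 5 boxes, Msmo1 and Hsd17b7 have 3 each, and Acat2, Scap, Nr1h2, Nr1h3 and Abca1 have 0.

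Other genes around the pathway were read from lists drawn up by role. Of 39 further genes of sterol uptake, transport, oxysterol handling and SREBP control, 38 were found. None of the 30 measured at 6 h against dormant was higher or lower by the rule. At 12 h against dormant 2 of 29 were higher and 2 lower, shares of 6.90% each, near the 5.27% and 7.66% of all genes, and the list's median was -0.08. Tmem97, a sterol-regulated membrane protein that binds NPC1, had 0.97 (dormant), 1.70 (reactivating) and 4.99 RPKM (reactivated) and was one of those that rose, with a ratio of 5.12 (3.11 to 8.93) from 124 exon reads in the reactivated library and 18 in the dormant one. Apoe, the apolipoprotein that carries cholesterol, had 258 (dormant), 252 (reactivating) and 77.4 RPKM (reactivated) and fell to a ratio of 0.300 (0.283 to 0.318). Gramd1a, which moves cholesterol from the plasma membrane to the endoplasmic reticulum, had 4.74 (dormant), 5.60 (reactivating) and 1.67 RPKM (reactivated) and fell to 0.351 (0.268 to 0.457). Apoe and Npc2 were thus both most abundant in the dormant library and both lowest at 12 h. The immune, uterine epithelial, trophectoderm and primitive endoderm marker sums were also lower at 12 h than in dormant, and their part was not tested. Of the 13 genes of the prenyl branches (dolichol, ubiquinone and protein prenylation), 0 were higher and 0 lower in each of the 3 comparisons, with medians of -0.03, 0.05 and 0.07 at 6 h against dormant, 12 h against dormant and 12 h against 6 h.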

How the data were processed

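RNA of mouse blastocysts was measured in 3 pooled libraries, 1 per state, by SOLiD sequencing (single-end, 50 bp) of total RNA depleted of rRNA, per the labels' protocols. The authors deposited, per the file headers, read counts per gene in exons, introns, exon junctions and on the opposite strand, and an RPKM per gene scaled by exon length and library total. The build is GRCm38, per the submitters' processing notes. For the aligner, counter and annotation: not given in the sources used here. Genes with at least 200 exon reads gave library totals of 14118723 (dormant), 15687239 (reactivating) and 18982195 (reactivated) reads behind the RPKM, and the floor of 3 reads for a gene with 1 kb of exon is 0.212, 0.191 and 0.158 RPKM. Opposite-strand counts are a column of their own, and exon counts were taken as on the gene's strand.

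Of the set, 21 genes were matched by symbol, 1 by an older symbol and 8 by Ensembl ID. Coordinates are those of GENCODE M21, whose gene lengths equal the deposited ones for 0 of the 30, so exon lengths are the authors'. The members and lists were chosen with earlier results of these data known. All genes of the set are named, and of the other lists those past the size rule (a log2 difference of 1 with a pseudocount of 1 RPKM, and at least 1 RPKM in the higher library). 1 gene of the other sterol list that passed is not reported here. With 1 library per state no test, SD or p-value was computed. Intervals are exact at 95%, and intron ratios need 20 intron reads. Alternatives were other pseudocounts, minima, scalings, CPM from the counts, and a smaller size. Code was checked on simulated data. Tools were Python 3.11.15, pandas 2.3.3, numpy 2.4.6, scipy 1.17.1 and matplotlib 3.10.9.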

Additional observations from a re-analysis of the deposited data

Results flagged for a closer look

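Reads on the opposite strand, which the levels above do not use, exceeded those of the dormant library in both later libraries for 20 of the 30 genes. Over all genes such reads also grew, from 509388 (dormant) to 684309 (reactivating) and 858346 (reactivated), beside a larger number of reads in those libraries. The count of 20 and the next one were not made over all genes, so neither is read as particular to the set. In 3 genes they reached at least 20 reads and at least 20% of the exon reads in a library. Hsd17b7 had 3 such reads in the dormant library, 21 in the reactivating and 25 in the reactivated one. Scap had 19 in the dormant, 38 in the reactivating and 65 in the reactivated library. Abcg1 had 27 in the dormant, 47 in the reactivating and 54 in the reactivated library, where they outnumbered its 50 exon reads. What these reads come from was not tested.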

How the results depend on the processing

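Besides RPKM with a pseudocount of 1, 9 other settings were run. None turned the sign of a single gene of the set that passed the size rule. The median of the set at 6 h against dormant, 0.03, turned to -0.018 under upper-quartile scaling, -0.017 under median-ratio scaling and -0.016 in RPKM without small RNA, ribosomal RNA and mitochondrial genes, so no direction is drawn from it. With a size of at least 1.5 times, 2 genes (Ggps1 and Fdft1) were higher at 6 h against dormant (7.89% of all genes), 11 were higher and 4 lower at 12 h against dormant (14.2% and 20.3%), and 9 were higher and 3 lower at 12 h against 6 h (11.5% and 21.1%). The count lower at 12 h against 6 h, 1 gene (Npc2), was 2 with a pseudocount of 0.1 RPKM and 2 with CPM of exon reads (Abcg1 added in both), and 0 under upper-quartile scaling, median-ratio scaling and RPKM without small RNA, ribosomal RNA and mitochondrial genes, where Npc2 lay between -0.92 and -0.84. Upper-quartile scaling moved the median of all genes at 12 h against 6 h to 0.03, in place of -0.13, with 700 genes higher and 645 lower in place of 461 and 920, and the set then had 8 higher and 0 lower. At 12 h against dormant the set's median lay 0.45 above that of all genes, and 0.44 above it under upper-quartile scaling. With a minimum of 5 RPKM Fdps is no longer measured at 12 h against dormant. Depth limits Idi1, Nr1h3, Fdps, Hsd17b7, Tm7sf2 and Abcg1, whose intervals are wide. No paired analysis was possible because each state has 1 library, and for the same reason no library could be left out.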
